A study of Neurospora crassa with 12 samples.

Results

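The genes described here encode 5 Neurospora crassa enzymes that act on starch or sucrose: the glucoamylase gene gla-1 (NCU01517), the GH13 amylase genes gh13-1 (NCU08131) and gh13-6 (NCU05873), the starch monooxygenase gene NCU08746 and the invertase gene inv (NCU04265). They were taken by locus number, from a list drawn up with earlier results of these data known, and are 5 of the 9730 genes in the count table. All 5 were among the 8805 genes that passed the filter on low counts and were tested. The study compared a wild-type strain (WT) with Δclr-5, a deletion mutant of the Zn2Cys6 transcription factor gene clr-5 that was obtained, like the WT strain, as a single strain from the Fungal Genetics Stock Centre. Mycelium of each strain was precultured and moved to 2% Avicel, a microcrystalline cellulose, and RNA was sequenced from 2 independent cultures per strain and medium. One medium was Vogel's salts with their own nitrogen. The other media were nitrogen-free Vogel's salts with 50 mM histidine or 50 mM leucine, so a difference between media joins the added amino acid to the loss of the usual nitrogen, and these cannot be told apart. The labels give 8 h of induction, while the methods give a shorter time. The 6 groups of 2 cultures are called WT and Δclr-5 on Avicel, on histidine and on leucine.

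Fungi digest starch outside the cell. Amylases of family GH13 cut the α-1,4 bonds within the chains, glucoamylase releases glucose from chain ends, and starch-active lytic polysaccharide monooxygenases cleave the chains by oxidation with a copper centre. Invertase splits sucrose into glucose and fructose. In Neurospora, starch genes are known targets of the transcription factor COL-26, and many carbohydrate genes are repressed by CRE-1 while glucose is plentiful. No medium named in the labels held starch or sucrose.

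Total counts per library ran from 16797962 to 20381308, with a median of 18400977. Levels are counts scaled to the TMM-adjusted library size, known as CPM, and are given as mean ± SD over n = 2 cultures. The deletion was visible in the libraries of each medium: clr-5 stood at 30.7 ± 4.42, 43.7 ± 5.34 and 21.9 ± 2.32 CPM in WT on Avicel, histidine and leucine, and at 1.98 ± 0.0584, 1.47 ± 0.227 and 2.75 ± 0.294 CPM in Δclr-5. The Avicel pair of Δclr-5 cultures showed the widest spread. The log2 difference between its 2 cultures had an SD of 0.70 over all tested genes, against 0.32 to 0.50 in the other groups. The samples are labelled mycelium, but a list of 9 conidiation markers (eas, con-6, con-8, con-10, con-13, fl, acon-2, acon-3 and ccg-1), none at 0 in any library, was higher in sum in both Δclr-5 cultures than in both WT cultures of each medium. The reads come from whole mycelium, so fewer cells of a type and less RNA per cell cannot be told apart.

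Levels between genes can be set side by side only per length, here per kilobase of the gene span with introns. On that scale gh13-1 was the highest of the 5 in every group, at 463 CPM per kb in Δclr-5 on Avicel and 1484 CPM per kb in Δclr-5 on histidine. It ranked between place 16 and place 165 among 8804 genes. NCU08746 ran across most of the range of the transcriptome, from 414 CPM per kb and the percentile 97.8 in WT on Avicel to 1.32 CPM per kb and the percentile 10.995 in Δclr-5 on histidine. The level of gla-1 lay between the percentiles 52.1 and 98.9. Low levels were found for gh13-6, between the percentiles 26.7 and 47.8, and for inv, between 9.93 and 60.8. Together the 5 genes took 0.159% to 0.710% of a library's counts, and gh13-1 supplied 63.0% to 92.9% of that share.

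**Figure D1:**
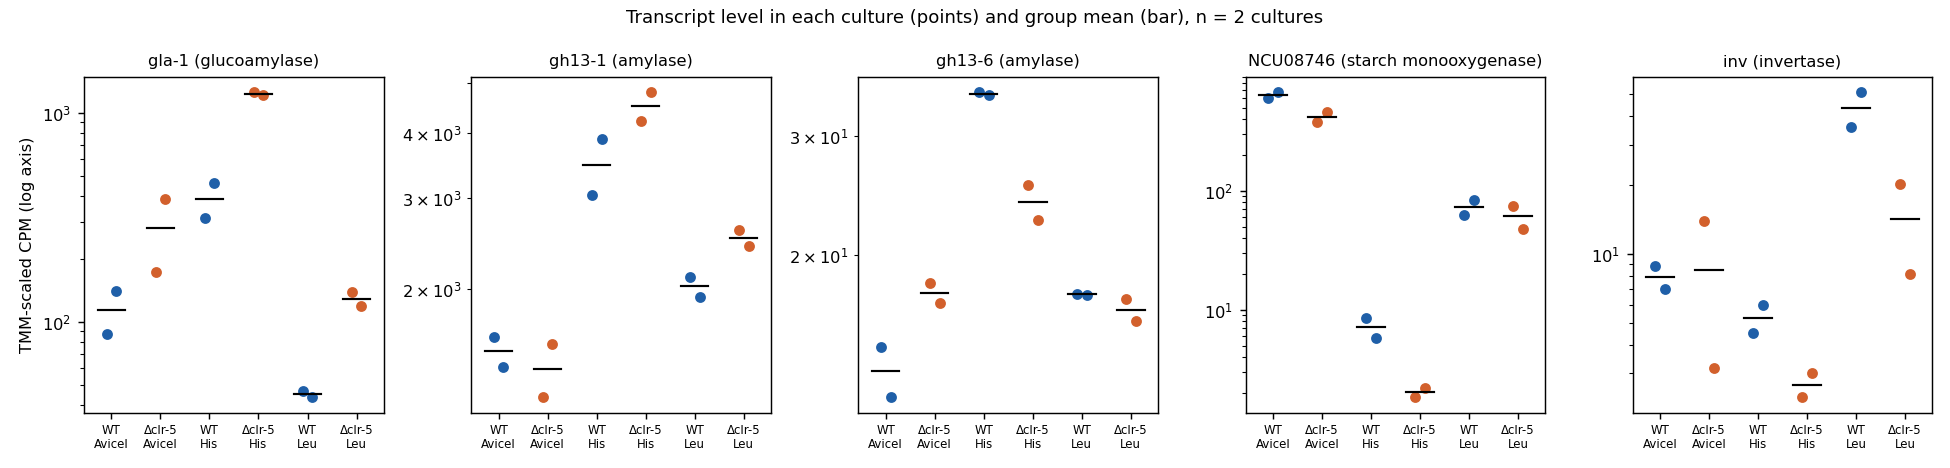
Level of each of the 5 genes in all 12 libraries, in CPM on log axes, with 1 point per culture, WT in blue and Δclr-5 in orange. Within each strain the histidine libraries lie highest for gla-1, gh13-1 and gh13-6 and lowest for NCU08746, and inv is highest in WT on leucine, at 36.0 and 50.8 CPM.

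Strains and media were compared with edgeR's quasi-likelihood test, fitted to all 12 libraries, with p adjusted by Benjamini-Hochberg over the 8805 tested genes. A call needed an adjusted p under 0.05 and a log2 fold change of 0.5 or more in size. Between the strains, 1 of the 5 genes was called on Avicel (gla-1), where 20.1% of all tested genes were called. On histidine 3 were called (gla-1, gh13-6 and NCU08746) against 21.0% of all tested genes, and on leucine 1 was called (gla-1) against 19.5%. The counts on Avicel and leucine are therefore close to the share over all genes. In WT, 4 of the 5 differed between histidine and Avicel (background 52.1%), 3 between leucine and Avicel (41.9%) and 5 between histidine and leucine (49.7%). In Δclr-5 the same 3 media comparisons called 4 (54.9%), 3 (37.3%) and 5 (53.0%). These media comparisons share libraries within a strain. The 5 genes moved in different directions, so their medians say little of any one of them. Their median log2 fold change between the strains was 0.09 on Avicel, -0.53 on histidine and -0.08 on leucine, beside -0.0053, -0.03 and 0.03 over all tested genes. For the 3 media comparisons it was 1.19, 0.38 and 0.77 in WT (0.08, -0.03 and 0.03 over all tested genes) and 0.45, -0.08 and 0.53 in Δclr-5 (0.03, 0.02 and -0.04).

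The glucoamylase gene gla-1 was higher in Δclr-5 than in WT on all 3 media and, in both strains, highest on histidine and lowest on leucine. In the OR74A assembly NC12 it is on chromosome II, from 3214128 to 3217500. On Avicel its levels were 87.3 and 140.9 CPM in the WT cultures and 173 and 386 CPM in the Δclr-5 cultures. On histidine they were 313 and 459 CPM in WT and 1250.3 and 1217 CPM in Δclr-5. On leucine they were 46.5 and 43.5 CPM in WT and 139 and 119 CPM in Δclr-5. In each medium both mutant cultures lay above both WT cultures, but the ranges of WT on histidine and Δclr-5 on Avicel overlapped, as did those of WT on Avicel and Δclr-5 on leucine.

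The log2 fold change of gla-1 between Δclr-5 and WT was 1.29 on Avicel (standard error, SE, 0.35, adjusted p = 0.0264), or 2.45-fold. It was 1.68 on histidine (SE 0.35, adjusted p = 0.00747), or 3.20-fold, and 1.52 on leucine (SE 0.36, adjusted p = 0.0150), or 2.86-fold. No difference of these strain folds between media passed the test, and the intervals are wide: histidine minus Avicel was 0.38 (95% interval -0.71 to 1.47), leucine minus Avicel 0.22 (-0.87 to 1.32) and histidine minus leucine 0.16 (-0.93 to 1.25). The call on Avicel was lost without Δclr-5 culture 2, where the log2 fold change was 0.61, and without WT culture 1, with an adjusted p of up to 0.179. It was also lost when those 4 libraries were fitted alone. The call on histidine was lost without WT culture 1 (adjusted p = 0.0638) and that on leucine without any 1 of its 4 libraries, with an adjusted p of up to 0.106, though the fold stayed positive in each case.

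The conidiation markers were, in sum, also higher in both mutant cultures of each medium. Their summed level on Avicel was 1443 and 953 CPM in WT and 4486 and 39855 CPM in Δclr-5. On histidine the sum was 5765 and 9929 CPM in WT and 74143 and 63796 CPM in Δclr-5. On leucine it was 4690 and 4529 CPM in WT and 14021 and 14611 CPM in Δclr-5. Single genes made up most of these sums: eas, the hydrophobin gene of the conidial coat, was at 69562 and 59392 CPM in Δclr-5 on histidine, and ccg-1 at 12948 and 13076 CPM in Δclr-5 on leucine. Without ccg-1 the sum on leucine was 629 and 609 CPM in WT and 1073 and 1535 CPM in Δclr-5. The sum and gla-1 ranked some cultures alike and others not. In Δclr-5 on Avicel, in both strains on histidine and in WT on leucine, the culture with the higher sum had more gla-1. In WT on Avicel and in Δclr-5 on leucine it had less. Without ccg-1 the sum in WT on Avicel was 238 and 285 CPM, and the higher sum then went with more gla-1. Between media in WT, the sum was higher on leucine than on Avicel while gla-1 was lower. Of the 9 markers, 7 were called higher in the mutant on Avicel (all tested genes 20.1%), 4 on histidine (21.0%) and 2 on leucine (19.5%), where 1 was lower. The count on Avicel was 4 without WT Avicel culture 1, that on histidine was 2 without either WT histidine culture and 6 without Δclr-5 Avicel culture 1, and the count higher on leucine was 5 without either Δclr-5 Avicel culture and 1 without WT leucine culture 1. Their part in the result for gla-1 was not tested.

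Across media, gla-1 in WT was higher on histidine than on Avicel by a log2 fold change of 1.76 (SE 0.36, adjusted p = 0.00179). On leucine it was lower than on Avicel, with a log2 fold change of -1.34 (SE 0.36, adjusted p = 0.0114). Histidine and leucine thus stood on opposite sides of Avicel, and the log2 fold change between them was 3.10 (SE 0.38, adjusted p = 6.94e-05), or 8.57-fold. In Δclr-5 the same comparisons gave 2.14 for histidine against Avicel (adjusted p = 0.000528), -1.12 for leucine against Avicel (adjusted p = 0.0271) and 3.26 for histidine against leucine (adjusted p = 4.51e-05). The decrease on leucine in WT lost its call without WT Avicel culture 2 or either leucine culture, with an adjusted p of up to 0.0793. The decrease in Δclr-5 lost it under 5 of the 19 alternative settings and was -0.43 without Δclr-5 Avicel culture 2, while the rise on histidine over Avicel in WT kept its call under all 19.

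**Figure D2:**
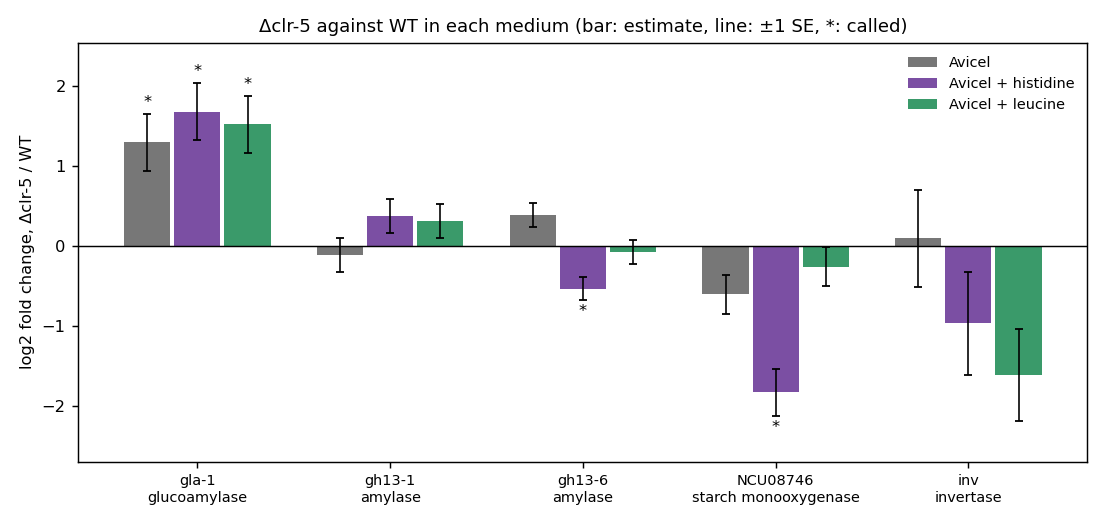
Log2 fold change of Δclr-5 against WT for each of the 5 genes on the 3 media, with error bars of 1 SE and called values marked apart from the rest. Values for gla-1 lie between 1.29 and 1.68 on all media, and NCU08746 and gh13-6 are called lower on histidine, at -1.82 and -0.53.

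The amylase gene gh13-1 was abundant in every group, was higher on histidine than on the other media in both strains, and was not called between the strains on any medium. It lies on chromosome VII from 3466859 to 3469892. Its levels in WT were 1622 and 1419 CPM on Avicel, 3045 and 3891 CPM on histidine, and 2117 and 1937 CPM on leucine. In Δclr-5 they were 1239.95 and 1570.1 CPM on Avicel, 4219 and 4788 CPM on histidine, and 2597 and 2427 CPM on leucine. The order histidine, leucine, Avicel held in both strains without overlap between the cultures of different media.

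Both mutant cultures lay above both WT cultures for gh13-1 on histidine and on leucine, but with log2 fold changes of only 0.38 (SE 0.21, adjusted p = 0.240) and 0.31 (SE 0.21, adjusted p = 0.340). On Avicel the strains overlapped, at -0.11 (SE 0.21, 95% interval -0.59 to 0.36), a value that was 0.11 when libraries were scaled by their totals. Between media, the log2 fold change in WT was 1.19 for histidine against Avicel (SE 0.22, adjusted p = 0.000751) and 0.77 for histidine against leucine (SE 0.21, adjusted p = 0.0104). The latter was not called without WT histidine culture 2 or WT leucine culture 2, with an adjusted p of up to 0.0727. For leucine against Avicel in WT the value was 0.41 (SE 0.21, adjusted p = 0.136). In Δclr-5 the 3 media comparisons gave 1.68 (adjusted p = 7.18e-05), 0.84 (adjusted p = 0.00627) and 0.84 (adjusted p = 0.00973) in the same order, and each was called. The call of the second was lost without Δclr-5 leucine culture 2 (adjusted p = 0.0527) and that of the last without Δclr-5 leucine culture 1 (adjusted p = 0.0610) or when only the 4 libraries compared were fitted (adjusted p = 0.0618).

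The second amylase gene of the group, gh13-6, stood far below gh13-1, which had 65.6 to 205 times its counts per base of gene, and its strain fold differed between Avicel and histidine by edgeR's test of the difference. It lies on chromosome VII from 4120568 to 4123484. On Avicel its levels were 14.6 and 12.3 CPM in WT and 18.2 and 16.9 CPM in Δclr-5. On histidine they were 34.8 and 34.4 CPM in WT and 25.4 and 22.5 CPM in Δclr-5. On leucine they were 17.5 and 17.4 CPM in WT and 17.2 and 15.9 CPM in Δclr-5. The mutant was thus above WT in both cultures on Avicel and below it in both cultures on histidine.

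Between the strains, the log2 fold change of gh13-6 on histidine was -0.53 (SE 0.14, adjusted p = 0.0228). It was 0.38 on Avicel (SE 0.15, adjusted p = 0.0933) and -0.08 on leucine (SE 0.15, adjusted p = 0.755). With scaling by library totals it was 0.59 and called on Avicel (adjusted p = 0.0246) and 0.18 on leucine. The call on histidine was lost without any 1 of its 4 libraries, with an adjusted p of up to 0.173. The strain fold on histidine minus that on Avicel was -0.92 (SE 0.21, 95% interval -1.38 to -0.46, adjusted p = 0.0165). The call was lost without WT Avicel culture 2 or Δclr-5 histidine culture 2. In this test edgeR called 1 of the 5, beside 14.3% of all tested genes, or 1263. DESeq2 called 2, gh13-6 and NCU08746, beside 1661 of all genes. In WT, gh13-6 was 2.57-fold higher on histidine than on Avicel (log2 fold change 1.36, SE 0.15, adjusted p = 2.20e-05), and the value in Δclr-5 was 0.45 (adjusted p = 0.0217), under the fold threshold. The latter was 0.80 and called with scaling by library totals, and 0.53 and called without Δclr-5 histidine culture 2. Against leucine, histidine gave 0.99 in WT (adjusted p = 0.000220) and 0.53 in Δclr-5 (adjusted p = 0.00938), where the call was lost without Δclr-5 histidine culture 1 or Δclr-5 leucine culture 2. The value for leucine against Avicel was 0.38 in WT (adjusted p = 0.0627) and -0.08 in Δclr-5 (adjusted p = 0.678), and with scaling by library totals these were 0.54, which was called, and 0.13.

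The starch monooxygenase gene NCU08746 had the widest range of the 5. It was high on Avicel, lower on leucine and lowest on histidine, in both strains, and on histidine it was lower again in Δclr-5. It lies on chromosome II from 3873518 to 3875060. On Avicel its levels were 605 and 672 CPM in WT and 379 and 462 CPM in Δclr-5. On leucine they were 62.9 and 83.4 CPM in WT and 74.8 and 47.7 CPM in Δclr-5. On histidine they were 8.57 and 5.83 CPM in WT, from 187 and 118 counts, and 1.84 and 2.23 CPM in Δclr-5, from 43 and 46 counts. The 3 media did not overlap within a strain, and the strains overlapped on leucine only.

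In WT, NCU08746 was 88.5-fold lower on histidine than on Avicel, with a log2 fold change of -6.47 (SE 0.31, adjusted p = 6.19e-08). On leucine it was 8.73-fold lower than on Avicel (log2 fold change -3.13, SE 0.26, adjusted p = 4.95e-06), and histidine against leucine gave -3.34 (SE 0.27, adjusted p = 2.52e-06). In Δclr-5 the decrease on histidine reached 206-fold (log2 fold change -7.69, SE 0.33, adjusted p = 3.08e-08), beside -2.78 on leucine (SE 0.26, adjusted p = 1.57e-05) and -4.91 for histidine against leucine (SE 0.30, adjusted p = 3.48e-07). All 6 of these calls held under each of the 19 alternative settings.

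Between the strains, NCU08746 on histidine was 3.54-fold lower in Δclr-5 than in WT, with a log2 fold change of -1.82 (SE 0.29, adjusted p = 0.00142), a call kept under all 19 alternative settings. On Avicel both mutant cultures lay below both WT cultures, with a log2 fold change of -0.60 that was not called (SE 0.24, adjusted p = 0.0973). On leucine the value was -0.26 (SE 0.24, adjusted p = 0.492). The strain fold on histidine minus that on leucine was -1.57 (SE 0.38, 95% interval -2.41 to -0.73, adjusted p = 0.0246), and 1 of the 5 genes was called in this test against 11.4% of all tested genes. That call was lost without either Δclr-5 histidine culture, WT histidine culture 1, Δclr-5 leucine culture 1 or WT leucine culture 1, with an adjusted p of up to 0.124. Histidine minus Avicel gave -1.22 (SE 0.38, adjusted p = 0.0543), which edgeR did not call and DESeq2 did (adjusted p = 0.0262). EdgeR also called it with scaling by library totals (-1.44, adjusted p = 0.0236) and without Δclr-5 Avicel culture 1, WT histidine culture 2 or either Δclr-5 leucine culture. For leucine minus Avicel none of the 5 genes was called by edgeR or by DESeq2, and none had an unadjusted p under 0.05. Over all tested genes edgeR called 5.54% there, or 488, and DESeq2 called 1030.

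**Figure D3:**
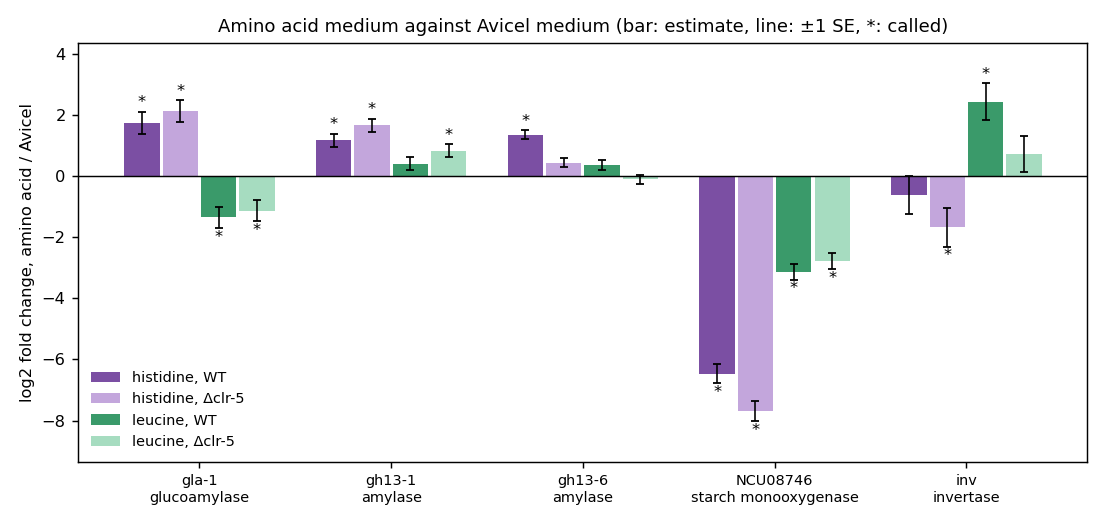
Log2 fold change between media for each of the 5 genes within WT and within Δclr-5, with error bars of 1 standard error. On histidine against Avicel NCU08746 lies at -6.47 in WT and -7.69 in Δclr-5, while gla-1, gh13-1 and gh13-6 lie above 0 in both strains.

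The invertase gene inv was most abundant in WT on leucine and low elsewhere. It lies on chromosome V from 5424497 to 5426871, and all 2375 bases of its span lie inside the annotated span of another gene, NCU04264 (5420669 to 5426873). Its levels in WT were 8.81 and 7.05 CPM on Avicel, 4.49 and 5.98 CPM on histidine, and 36.0 and 50.8 CPM on leucine. In Δclr-5 they were 13.9 and 3.17 CPM on Avicel, 2.36 and 3.004 CPM on histidine, and 20.2 and 8.16 CPM on leucine. The WT leucine cultures stood above all other libraries, whereas the paired cultures of Δclr-5 were far apart on leucine and on Avicel.

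In WT, inv was 5.47-fold higher on leucine than on Avicel (log2 fold change 2.45, SE 0.61, adjusted p = 0.00880), a call that was lost without WT Avicel culture 2 (adjusted p = 0.0595). Histidine against leucine gave -3.05 in WT (SE 0.62, adjusted p = 0.00223) and -2.41 in Δclr-5 (SE 0.63, adjusted p = 0.00889), where the call was lost without histidine culture 1 or leucine culture 1 and the value was -1.61 without the latter. Histidine against Avicel gave -0.60 in WT (SE 0.62, adjusted p = 0.430). In Δclr-5 it gave -1.66 (SE 0.64, adjusted p = 0.0472), a call lost under 13 of the 19 alternative settings, with a value of -0.25 without Δclr-5 Avicel culture 1. Leucine against Avicel in Δclr-5 gave 0.75 (SE 0.59, adjusted p = 0.337), and 2.16 and called without Δclr-5 Avicel culture 1. Between the strains, both mutant cultures on leucine lay below both WT cultures, at a log2 fold change of -1.61 that edgeR did not call (SE 0.57, adjusted p = 0.0751) and DESeq2 did (adjusted p = 0.0161). Without 1 library that value ran from -2.41 to -1.10. On histidine the value was -0.97 (SE 0.64, adjusted p = 0.322), and edgeR called it when only the 4 libraries compared were fitted (adjusted p = 0.0300). On Avicel it was 0.09 (SE 0.61, adjusted p = 0.931), a value that was -1.32 without Δclr-5 culture 1.

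The counts of inv and gh13-6 carry an uncertainty of position. Whether the counting used strand is not given in the sources used here, so reads from overlapping genes may have been left out or assigned to either gene. The enclosing gene NCU04264 held 1391 to 2610 counts per library, at 74.5 to 139 CPM, and in WT its log2 fold change was -0.63 on leucine against Avicel (adjusted p = 0.00354), in the other direction from inv. The span of gh13-6 shares 379 bases, or 12.99%, with NCU05872, which held only 4 to 31 counts per library. No annotated gene overlaps gla-1, gh13-1 or NCU08746.

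On histidine, against Avicel or leucine, gla-1 was higher and NCU08746 lower. On leucine against Avicel both were lower, at log2 fold changes of -1.34 and -3.13 in WT. The levels of these 2 genes can also be compared within each library, where scaling plays no part. The ratio of gla-1 to NCU08746 in counts per base of gene was 0.0660 and 0.0959 in the WT cultures on Avicel and 0.209 and 0.382 in Δclr-5. On leucine it was 0.338 and 0.239 in WT and 0.849 and 1.14 in Δclr-5. On histidine it was 16.7 and 36.0 in WT and 310.2 and 249.9 in Δclr-5. The glucoamylase transcript was therefore the more abundant of the pair in every histidine library, the less abundant in every Avicel library, and in each medium the ratio was higher in both mutant cultures than in both WT cultures.

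**Figure D4:**
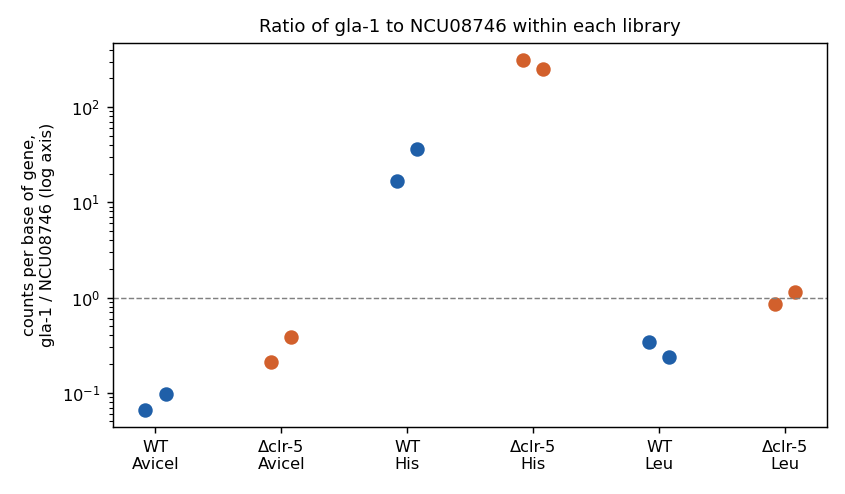
Ratio of gla-1 to NCU08746 within each of the 12 libraries, as counts per base of gene span on a log axis, with WT in blue, Δclr-5 in orange and a dashed line at equal abundance. Ratios lie from 0.0660 in a WT culture on Avicel to 310.2 in a Δclr-5 culture on histidine.

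Other genes of starch and maltose breakdown and of sugar uptake were followed as a list of 11. On Avicel, 5 of the 11 were called between the strains, where 20.1% of all tested genes were. The GH13 gene gh13-2 (log2 fold change 1.68, adjusted p = 0.0431), the GH31 gene gh31-1 (3.30, adjusted p = 0.0128), NCU01633 (3.78, adjusted p = 0.0245) and the trehalase gene tre-1 (0.57, adjusted p = 0.0157) were higher in Δclr-5. The glucose transporter gene hgt-1 was lower (-0.74, adjusted p = 0.0263). Culture 2 of the mutant carried much of the rise: gh31-1 was at 11.7 and 8.62 CPM in WT but at 22.6 and 178 CPM in Δclr-5, NCU01633 at 4.37 and 1.42 CPM against 5.81 and 74.0 CPM, and gh13-2 at 5.78 and 3.67 CPM against 6.24 and 24.0 CPM. Without this culture 2 of the 11 were called, and the log2 fold change of NCU01633 was 1.00 and that of gh13-2 was 0.40, neither called. Without WT Avicel culture 1 none of the 11 was called by edgeR, and without WT Avicel culture 2 only hgt-1 was.

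On histidine, where 21.0% of all tested genes were called, none of the 11 was called between the strains by edgeR. Of the 11, 2 had an unadjusted p under 0.05, and DESeq2 called 1, beside 2046 of all genes. Without either Δclr-5 Avicel culture edgeR called 2. In those fits more of all tested genes were called as well. On leucine 19.5% of all tested genes were called. Of the 11, only gla-2 was called higher (0.66, adjusted p = 0.00363) and only hgt-1 lower (-0.78, adjusted p = 0.0219) in Δclr-5. The decrease of hgt-1 separated the strains without overlap, from 2096 and 1596 CPM in WT to 1107 and 1104 CPM in Δclr-5 on Avicel, and from 1563 and 1413 CPM to 898 and 833 CPM on leucine. Both of its calls were lost with scaling by library totals, at log2 fold changes of -0.53 and -0.52. The call on Avicel was also lost without Δclr-5 culture 2 or WT culture 1, and that on leucine without any 1 of its 4 libraries.

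Between media in WT, 6 of the 11 were called on histidine against Avicel, near the 52.1% of all tested genes. Higher on histidine were gh31-1 (log2 fold change 2.94), NCU00450 (1.08) and the glucose sensor gene rco-3 (0.99), and lower were gla-2 (-1.15), NCU00575 (-1.92) and tre-1 (-0.76). The value of tre-1 was -0.21 and not called with scaling by library totals. On leucine against Avicel, where 41.9% of all tested genes were called, only tre-1 was called higher (1.83) and only NCU00575 lower (-0.64). The GH31 gene gh31-1 rose with gla-1 on histidine, at 91.3 and 64.7 CPM in WT, whereas gla-2 fell from 214 and 215 CPM to 102 and 91.998 CPM. In Δclr-5, 6 of the 11 were called on histidine against Avicel and 5 on leucine against Avicel, beside 54.9% and 37.3% of all tested genes.

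**Figure D5:**
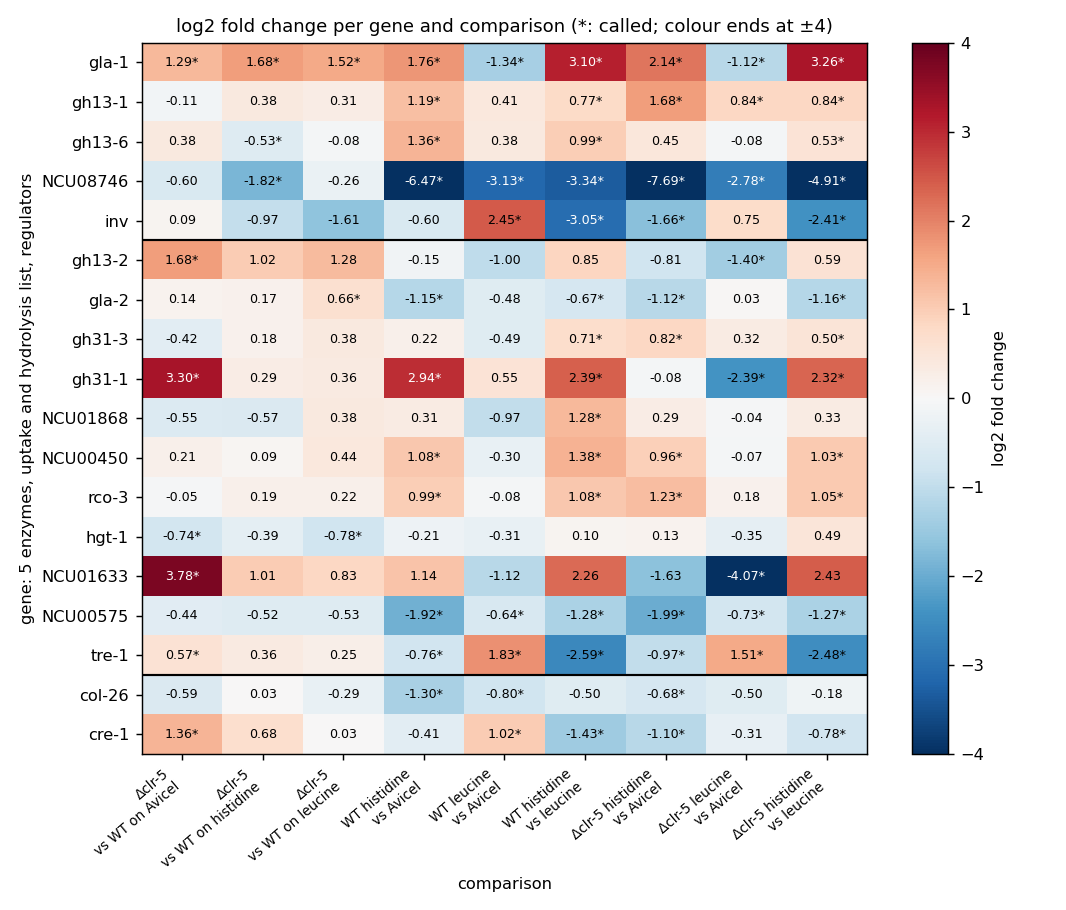
Log2 fold changes of the 5 genes and of the followed list and regulators in the strain and media comparisons, as colours with the value in each cell and called values marked. Trehalase gene tre-1 is 1.83 on leucine against Avicel in WT and -0.76 on histidine against Avicel, and gh31-1 is 2.94 on histidine against Avicel.

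The regulator gene col-26 was at 272 and 292 CPM in WT on Avicel and lower on both amino acids, with log2 fold changes of -1.30 on histidine (adjusted p = 0.00151) and -0.80 on leucine (adjusted p = 0.0273). In Δclr-5 it was at 247 and 127 CPM on Avicel and was lower on histidine (log2 fold change -0.68, adjusted p = 0.0412), a call that was lost without either histidine culture or without Avicel culture 1, where the value was -0.12. The decrease on leucine in WT was not called without any 1 of its 4 libraries, at adjusted p of up to 0.108. The repressor gene cre-1 was higher in Δclr-5 than in WT on Avicel, by a log2 fold change of 1.36 (adjusted p = 0.0122), from 64.8 and 128.9 CPM to 305 and 192 CPM. Without WT Avicel culture 1 it was 0.91 and not called (adjusted p = 0.0781). In WT it was higher on leucine than on Avicel (1.02, adjusted p = 0.0207, but 0.55 and not called without WT Avicel culture 1) and lower on histidine than on leucine (-1.43, adjusted p = 0.00292). In WT, col-26 was thus lower on histidine than on Avicel. Of the 5 enzyme genes, gla-1, gh13-1 and gh13-6 were higher there, NCU08746 was lower (-6.47) and inv was not called. On leucine against Avicel in WT, gla-1 (-1.34) and NCU08746 (-3.13) were lower, as col-26 was. There inv was higher (2.45), and gh13-1 and gh13-6 were not called. Between the strains col-26 was not called on any medium. Whether col-26 had a part in the level of any enzyme gene was not tested.

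Genes of glycogen metabolism, which build and break the cell's own α-glucan store, formed a list of 5. All 5 were called lower on histidine than on leucine in both strains, where 49.7% (WT) and 53.0% (Δclr-5) of all tested genes were called in either direction. The largest of these log2 fold changes in WT was that of the glycogen synthase gene gsn, at -2.58 (adjusted p = 4.06e-06), and that of the glycogenin gene gnn was -1.96 (adjusted p = 4.19e-06). Between the strains on histidine, gsn (-0.95, adjusted p = 0.00924) and gnn (-1.22, adjusted p = 0.000502) were lower in Δclr-5, beside 21.0% of all tested genes called. The call for gsn was lost without Δclr-5 histidine culture 1 or WT histidine culture 1. The mean of gsn was also lower in Δclr-5 on Avicel, at 473 against 753 CPM, and on leucine, at 538 against 828 CPM. That of gnn was higher in Δclr-5 on Avicel, at 413 against 356 CPM, and lower on leucine, at 1084 against 1475 CPM. On Avicel 1 of the 5 was called lower and 1 higher (all tested genes 20.1%), and on leucine none was called (19.5%). The glucoamylase gene and the glycogen genes therefore stood on opposite sides in the comparison of histidine with leucine.

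The likeness of other genes to each of the 5 was measured as the root-mean-square difference of log2 CPM over the 12 libraries, after each gene was centred on its own mean. Nearest to gla-1 were NCU06334 (0.31), NCU03043 (0.32) and NCU00935 (0.34). Nearest to gh13-1 were NCU03441 (0.16), NCU08150 (0.17) and NCU06839 (0.19), and nearest to gh13-6 were NCU06437 (0.14), NCU12126 (0.17) and NCU08553 (0.18). For NCU08746 they were NCU02850 (0.60), NCU05599 (0.70) and NCU06912 (0.70), and for inv they were NCU03118 (0.49), NCU00021 (0.49) and NCU00915 (0.54). Among the 5 themselves, gh13-1 and gh13-6 were closest (0.43) and gla-1 and NCU08746 farthest apart (4.12). The median over all 8805 genes was 1.61 from gla-1 and 3.01 from NCU08746, so the glucoamylase and the monooxygenase gene were farther from each other than a typical gene was from either.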

How the data were processed

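RNA was sequenced from mycelium of 12 cultures, 2 per strain and medium. The deposited values are raw counts per gene, which the authors made from uniquely mapping reads. Per the labels, TopHat2 2.0.8b and HTSeq 0.13.5 were used, and the methods give TopHat for alignment and HTSeq-count for counting. The strand setting is not given in the sources used here. The 5 genes and the followed lists were chosen with earlier results of these data known.

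Counts were filtered with filterByExpr of edgeR 4.0.16 (R 4.3.3), which kept 8805 of 9730 genes, and normalized by TMM. A robust quasi-likelihood model of 6 group means was fitted to all 12 libraries (6 residual degrees of freedom, common biological coefficient of variation 0.174), and p were adjusted by Benjamini-Hochberg over the 8805 genes. A call needed an adjusted p under 0.05 and a log2 fold change of 0.5 or more in size. The SE is the size of the log2 fold change over the root of F, and 95% intervals use the test's own degrees of freedom. Likeness used log2 CPM with a prior count of 2. Total counts of 16797962 to 20381308 set the depth. The p-values set a difference of group means against 1 estimate per gene of the spread between cultures, shared by the 6 groups of 2 cultures. The 5 genes were named in full, with called genes of the followed lists, the 3 genes most like each of the 5, and clr-5 as the check of the labels. Coordinates are those of the OR74A assembly NC12. Because the reference table holds spans only, levels per kb used the span with introns in place of the coding length. The script was tested on simulated data. Alternatives were RLE scaling, scaling by library totals, no filter, the adjusted p alone, only the libraries compared, a replicate block, DESeq2 1.42.0 and leaving out each library. The same checks of the followed lists, without each library and with scaling by totals, were added after seeing the data. Promoter motifs were not analysed here.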

Additional observations from a re-analysis of the deposited data

Results flagged for a closer look

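The strain effect on gh13-6 differed between media by a direct test of the difference. Its log2 fold change of Δclr-5 against WT on histidine minus that on Avicel was -0.92 (edgeR adjusted p = 0.0165), with both mutant cultures above both WT cultures on Avicel and below both on histidine. The call was lost without WT Avicel culture 2 or Δclr-5 histidine culture 2, with an adjusted p of up to 0.0750. The strain effect on NCU08746 differed between the amino acids, with histidine minus leucine at -1.57 (edgeR adjusted p = 0.0246). Its log2 fold change was below 0 on both, at -1.82 on histidine, where WT was at 8.57 and 5.83 CPM and Δclr-5 at 1.84 and 2.23 CPM, and -0.26 on leucine, where WT was at 62.9 and 83.4 CPM and Δclr-5 at 74.8 and 47.7 CPM. The call was lost in 5 of the 12 fits that left out 1 library, with an adjusted p of up to 0.124.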

How the results depend on the processing

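With 2 cultures per group and as few as 43 counts for NCU08746 and 55 for inv on histidine, single libraries carry weight. Of 60 values for the 5 genes, 31 were called and 16 of these kept their call under all 19 settings, while 21 of the 29 others were called under none. Scaling by library totals moved the median of all genes on histidine against Avicel in WT from 0.08 to 0.63. With it the count of the 5 genes called was 2 for the strains on Avicel, beside 2095 of all genes. It was also 2 for the strain fold on histidine minus Avicel, beside 1614 of all genes. When only the libraries compared were fitted, it was 0 for the strains on Avicel and 1 for Δclr-5 on leucine against Avicel. In that setting it was 4 for the strains on histidine, beside 2275 of all genes. With DESeq2 it was 2 for the strains on leucine, beside 1994 of all genes, and 2 for the strain fold on histidine minus Avicel, beside 1661. The cause of these shifts was not tested.

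Without 1 library the counts ranged from 0 to 1 for the strains on Avicel, 1 to 3 on histidine and 0 to 2 on leucine. In WT they ranged from 4 to 4 for histidine against Avicel, 1 to 3 for leucine against Avicel and 4 to 5 for histidine against leucine, and in Δclr-5 from 3 to 4, 1 to 4 and 3 to 5. For the strain folds they ranged from 0 to 2 (histidine minus Avicel), 0 to 1 (leucine minus Avicel) and 0 to 1 (histidine minus leucine). Where 1 culture was left, it was assumed to vary like the other groups. The number of all tested genes called also changed in these fits, for the media comparisons as well. A shift in the count of the 5 is therefore not a result about these genes alone.

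Over all genes, the count called fell from 1772 to 322 for the strains on Avicel, from 3280 to 1960 for leucine against Avicel in Δclr-5, from 1263 to 695 and from 488 to 223 for the strain folds against Avicel when only the libraries compared were fitted, and rose from 1006 to 1857 for histidine minus leucine. DESeq2 called 1030 for leucine minus Avicel. Without 1 library these counts ran from 747 to 2727 for the strains on Avicel, 912 to 2329 on histidine and 604 to 2335 on leucine, and for the strain folds from 471 to 2392 (histidine minus Avicel), 159 to 1389 (leucine minus Avicel) and 428 to 1723 (histidine minus leucine).

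Only values that were not called changed sign. With scaling by library totals these were gh13-1 for the strains on Avicel (0.11), gh13-6 for the strains on leucine (0.18) and for Δclr-5 on leucine against Avicel (0.13), and the strain fold of gla-1 (-0.088) and of gh13-1 (-0.18) on histidine minus leucine. Without 1 library, the strain value on Avicel ran from -0.29 to 0.046 for gh13-1 and from -1.32 to 0.81 for inv, and that of NCU08746 on leucine from -0.62 to 0.032. The value of inv for Δclr-5 on leucine against Avicel ran from -0.057 to 2.16. Strain folds ran from -0.083 to 1.07 for gla-1 and -1.78 to 0.35 for inv on histidine minus Avicel, from -0.24 to 0.91 for gla-1 and -0.018 to 0.63 for NCU08746 on leucine minus Avicel, and from -0.091 to 0.46 for gla-1 and -0.099 to 0.25 for gh13-1 on histidine minus leucine.

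Same-numbered cultures were not treated as paired, and the sources used here do not say whether they were. Culture differences correlated from -0.24 to 0.37 over 15 pairs of groups, with 2 pairs over 0.1, so no pairing common to all groups showed. With a replicate block, 1714, 1785 and 1642 genes were called between the strains on Avicel, histidine and leucine in place of 1772, 1853 and 1716. Of the 31 calls, the block ended only that of inv in Δclr-5 on histidine against Avicel, at a log2 fold change of -1.55 (adjusted p = 0.0650), which left 3 of the 5 called there, and it added none.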

Other observations

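Another 4 genes carry a GH13 or GH31 symbol in the reference and were added after those symbols were seen. The GH13 gene gh13-4 was at 2.04 and 1.499 CPM in WT on Avicel and at 9.54 and 13.3 CPM on histidine (log2 fold change 2.68, edgeR adjusted p = 3.04e-05), and at 18.8 and 17.6 CPM in Δclr-5 on histidine, so its level moved between these media in the direction of gla-1, gh13-1 and gh13-6. The GH31 gene gh31-2 moved the other way in WT, from 254 and 266 CPM on Avicel to 69.2 and 51.3 CPM on histidine (log2 fold change -2.11, adjusted p = 6.29e-06). On leucine against Avicel in WT, gh13-3 (1.27) and gh13-4 (1.28) were higher and gh13-5 (-1.48) and gh31-2 (-0.85) lower, all called. In that comparison 41.9% of all tested genes were called.

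Next to NCU08746, 200 bases after its end in coordinate order, lies NCU08747. It was lower in Δclr-5 than in WT on Avicel (log2 fold change -0.88, edgeR adjusted p = 0.0408), on histidine (-0.93, adjusted p = 0.0372) and on leucine (-2.17, adjusted p = 0.000667), at a mean of 6.02 CPM over the libraries. In WT its value was -1.23 on histidine against Avicel (adjusted p = 0.00266) and 0.12 on leucine against Avicel (adjusted p = 0.731), where NCU08746 was lower at -3.13. Other flanking genes were also called between the strains. On Avicel NCU08130 beside gh13-1 (0.92), NCU17284 beside gh13-6 (2.05), and gh76-2 (0.80) and NCU04266 (3.10) beside inv were higher. NCU11307 beside gh13-6 was lower there (-0.75). NCU08132 beside gh13-1 was higher on histidine (0.62), and NCU17284 was lower on leucine (-2.01). The alternative settings were not followed for any flanking gene.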
